A study of Danio rerio with 9 samples.

Results

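The study's catalog of 813 cardiac lincRNAs of the zebrafish includes 32 bidirectional lincRNAs, that is, long intergenic non-coding transcripts that lie close to a protein-coding gene and are read from its opposite strand. The 32 were taken as all different transcript names on the study's adult heart and embryonic heart lists of such pairs, and they are 32 of the 103079 assembled transcripts with deposited values. The adult heart list holds 29 of them and the embryonic heart list 21. Both lists hold 18, the adult heart list alone 11, and the embryonic heart list alone 3. These lists were made from lincRNAs that the study counts as expressed in the heart concerned. FPKM is a fragment count scaled to transcript length and to the mapped fragments of the sample. The study describes the rule as a mean above 0.1 FPKM, and in its methods as values above 0.1 FPKM in at least 2 of 3 samples. Expression above this level in a listed heart is therefore not a result. For lincRNAs on a single list, a low level in the other heart is likewise not a result. The 32 lincRNAs have 31 different neighbors, because 2 of them share tbx2b.

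RNA-seq was done on adult heart of wild-type fish aged 6 months, on embryonic heart of wild-type embryos aged 4 days, and on adult muscle of wild-type adult fish whose age is given only as adult. All fish were of the WIK strain, and no group was treated. Each tissue type had 3 samples, numbered 0, 1 and 2, for 9 in all. The values are of whole tissue, so fewer cells of a type and less RNA per cell cannot be told apart. They carry transcript names without gene names, and therefore neither the marker genes of each tissue nor the protein-coding neighbors of the lincRNAs are analysed here. Whether the libraries kept the strand is not given in the sources used here. Where a lincRNA overlaps a gene on the other strand, fragments from an unstranded library would not tell them apart.

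Many promoters of vertebrate genes start transcription in both directions, and a stable non-coding transcript that leaves on the side away from the gene is called a bidirectional or divergent lincRNA. In mammals such transcripts are common at genes for transcription factors and other regulators of development. Some have been shown to act on the gene beside them, and the role of most others is not known.

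The 32 lincRNAs lay on 17 chromosomes of the Zv9 assembly, with 5 on chromosome 4 and 5 on chromosome 16. Of these transcripts, 3 had 1 exon, 19 had 2 exons and 10 had 3 or more. Their lengths were 122 to 3178 nt with a median of 763.5 nt, against a median of 905 nt for the other 781 cardiac lincRNAs. Existing annotation covered 26 of the 32 (81.25%), against 46.6% of the other cardiac lincRNAs. The current RefSeq annotation, built on the newer GRCz12tu assembly, had an entry for 26 of the 31 neighbors by name or synonym, all of them protein-coding. In 25 of these 26 the chromosome number was that of the lincRNA in Zv9, the exception being calm2a. A long non-coding RNA gene stood directly beside 14 of the 26 in RefSeq (53.8%), against 32.3% of all 27039 protein-coding genes. The lists require a lincRNA beside the gene, so this difference was built in.

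Expression of the 32 lincRNAs was low. The highest of the 3 tissue means had a median of 0.854 FPKM over the 32 and exceeded 10 FPKM in 3 of them. These were the lincRNAs beside usp46 (24.9 FPKM, embryonic heart), BX927317.3 (19.3 FPKM, adult heart) and tbx2b (13.3 FPKM, embryonic heart). The transcript beside BX927317.3 has only 122 nt and was listed at 0 in 1 of the 3 adult heart samples. The mean was above 0.1 FPKM for 29 lincRNAs in adult heart, 22 in embryonic heart and 23 in adult muscle, and for 16 in all 3 tissue types. Muscle, which played no part in the listing, thus held most of them, as it did of the other cardiac lincRNAs (604 of 781). The highest mean was in adult heart for 15 lincRNAs, in embryonic heart for 10 and in adult muscle for 7. For the other 781 cardiac lincRNAs these counts were 320, 205 and 256, and the heart lists enter all of them. A value of 0 was listed for 47 of the 288 values (16.3%, against 11.4% in the other cardiac lincRNAs). An embryonic heart sample had 8 to 10 of the 32 at 0, an adult heart sample 1 to 5, and each adult muscle sample 4. Zeros in these files may also be failed estimates, so a lincRNA at 0 is only said to be listed at 0.

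**Figure D1:**
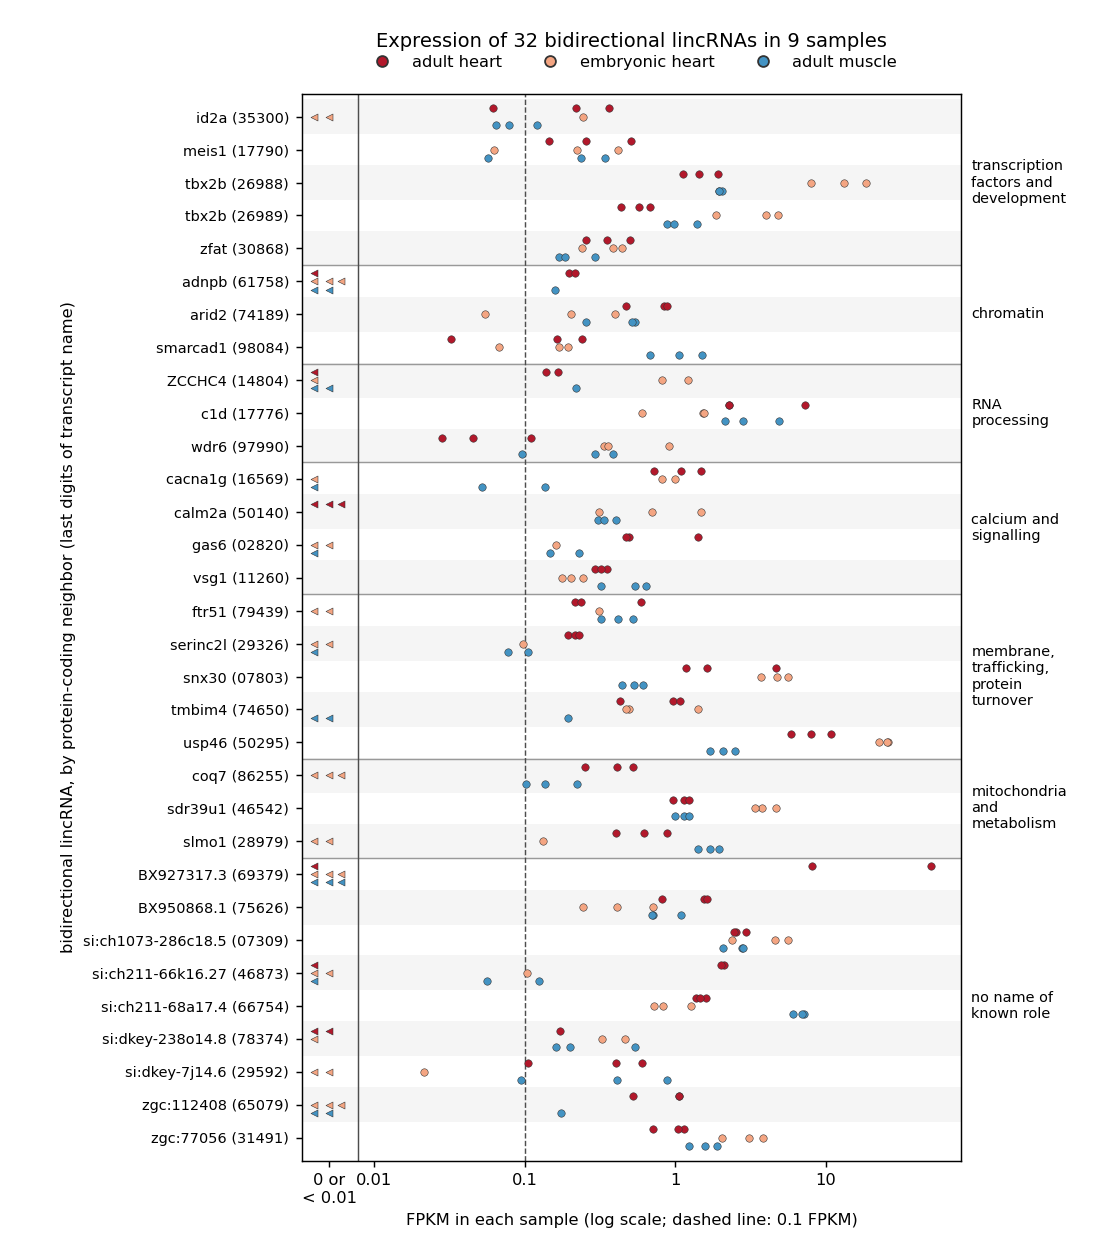
FPKM of each bidirectional lincRNA (rows, named by neighboring gene, with the last digits of the transcript name) in each of the 9 samples on a log axis, with 3 points per tissue type. Triangles at the left stand for values listed at 0 and for 6 values above 0 but below 0.01 FPKM. The 2 lincRNAs beside tbx2b and those beside usp46, sdr39u1 and zgc:77056 have their embryonic heart points to the right of all adult heart and muscle points, and those beside si:ch211-68a17.4, smarcad1 and slmo1 their muscle points.

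Read numbers did not come with the FPKM values, and the precision of a single value is therefore unknown. The FPKM worth of 1 fragment was estimated as the most common ratio to replicate 1, over transcripts with values in 2 to 4 of the samples. Within adult heart it was 1.26 times that of replicate 1 in replicate 0 and 0.828 times in replicate 2. In adult muscle these ratios were 0.924 and 1.23, and embryonic heart gave no clear peak. The 10 highest transcripts held 84.2%, 93.6% and 95.3% of the summed FPKM in embryonic heart replicates 0, 1 and 2. In the adult samples of both tissues they held 64.2% to 74.7%. The part of this in the comparisons was not tested. Across all transcripts tested, Pearson's r of log2 values was 0.857 to 0.886 within adult heart, 0.798 to 0.806 within embryonic heart and 0.858 to 0.871 within adult muscle. Transcripts are not independent replicates, and these are descriptions. Among the 32 lincRNAs, the SD of the log2 values over the 3 samples of a tissue type had a median of 0.50 in adult heart, 0.61 in embryonic heart and 0.38 in adult muscle.

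The comparisons came from 1 limma fit of all 9 samples, with log2(FPKM + 0.1) as the measure. A transcript was called at a Benjamini-Hochberg adjusted p below 0.05, over the 69118 transcripts tested, with a ratio of mean FPKM above 2. All 32 lincRNAs entered the test. The first question was how the bidirectional lincRNAs of the adult heart differ from those of the embryonic heart. Between the hearts, 5 of the 32 were called higher in adult heart (background: 12.2% of all transcripts) and 7 were called lower (background: 7.23%). An unadjusted limma p below 0.05 was found for 20, against 23918 of all 69118 transcripts and 362 of the 778 other cardiac lincRNAs tested. The 3 adult samples lay above the 3 embryonic samples for 11 lincRNAs (background: 24.2%) and below them for 7 (background: 15%), against 268 and 106 of the 778 other cardiac lincRNAs tested. The listing enters these counts. Among the 11 lincRNAs on the adult heart list alone 4 were called higher, and among the 3 on the embryonic heart list alone 2 were called lower. Among the 18 on both lists, 1 was called higher and 5 were called lower, and the median log2 fold change was -0.01.

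Over all 32 the median log2 fold change of adult over embryonic heart was 0.55, against 0.18 over all transcripts tested. Over the other cardiac lincRNAs it was higher, at 0.72. The listing enters the 0.55, since the 11 on the adult heart list alone had a median of 2.27 and the 18 on both lists -0.01. The shift of 0.18 over all transcripts depended on the scaling of the samples. It was -0.01 with quantile normalization, and the split over all transcripts was then 6791 higher and 6184 lower in place of 8423 and 4996. With median-ratio rescaling the split was 6917 higher and 6679 lower. The rescaling left 66033 transcripts and 31 of the 32 lincRNAs (all but that beside adnpb) above the filter. The median was 0.30 over the 32 with quantile normalization and 0.24 over these 31 with rescaling. Other cardiac lincRNAs were called higher in 168 and lower in 60 of 778.

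The second question was how far expression of these lincRNAs in heart differs from that in muscle. Adult heart was called higher than adult muscle for 5 of the 32 (background: 9.6%) and lower for 3 (background: 11.1%). For 13 the unadjusted limma p was below 0.05, against 23237 of all 69118 transcripts and 311 of 778 other cardiac lincRNAs. The adult heart samples lay above all muscle samples for 8 lincRNAs (background: 20.8%) and below them for 7 (background: 21.7%), against 223 and 161 of 778 other cardiac lincRNAs. The 8 calls became 5 without adult heart replicate 1, 5 without adult heart replicate 2 and 4 without adult muscle replicate 2. The median log2 fold change was 0.36, against 0.00 over all transcripts and 0.29 over the other cardiac lincRNAs. Embryonic heart was called higher than adult muscle for 6 (background: 10.9%) and lower for 5 (background: 17.3%). For 15 the unadjusted limma p was below 0.05, against 27788 of all 69118 transcripts and 354 of 778 other cardiac lincRNAs. The embryonic heart samples lay above all muscle samples for 7 lincRNAs (background: 17.4%) and below them for 8 (background: 26.1%), against 149 and 215 of 778 other cardiac lincRNAs. The 11 calls became 7 without adult muscle replicate 2. The median was -0.28, against -0.13 over all transcripts and -0.17 over the other cardiac lincRNAs. With quantile normalization it was 0.03 over the 32 and 0.08 over all transcripts. The split over all transcripts in this comparison was 7564 higher and 11952 lower, 9075 and 10019 with quantile normalization, and 9487 and 10226 with median-ratio rescaling. Tissue and age differ together here. The heart lists enter the counts against muscle too. Among the 11 on the adult heart list alone, embryonic heart was called higher than muscle for 0 and lower for 3. Among the 18 on both lists, it was called higher for 6 and lower for 2. For adult heart over muscle, these counts were 1 and 0 on the adult heart list alone, and 4 and 2 on both lists. On the embryonic heart list alone, 1 of 3 was called, lower in adult heart than in muscle. Each tissue type enters 2 of the 3 comparisons, so their results are not independent.

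**Figure D2:**
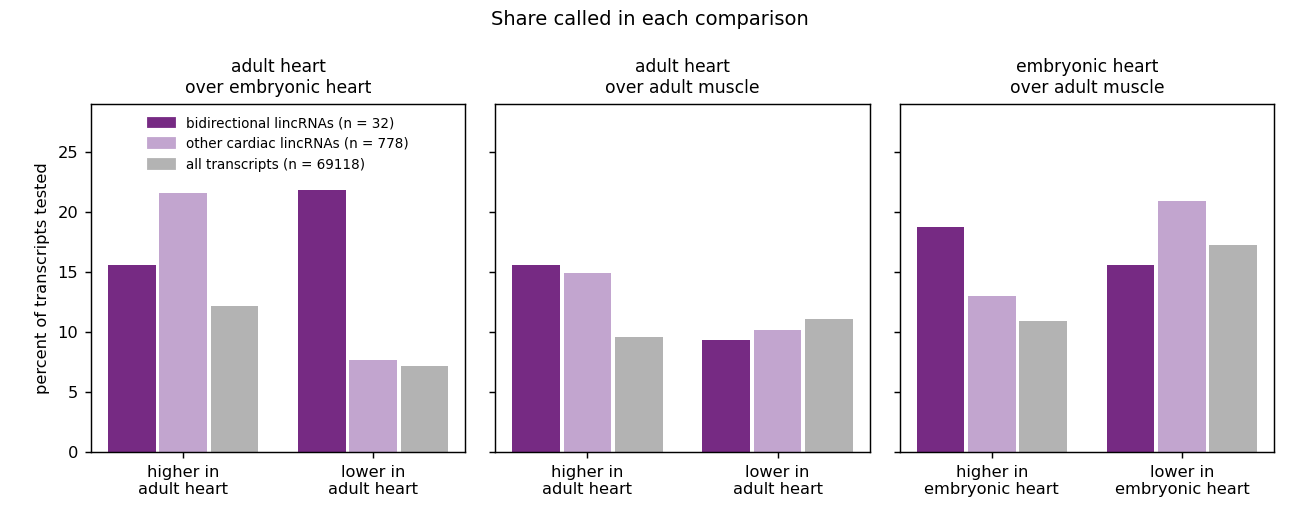
Percent of transcripts called higher and lower in each comparison among the 32 bidirectional lincRNAs, 778 other cardiac lincRNAs and all 69118 transcripts tested. Bars of the 32 stand for 3 to 7 lincRNAs, and the highest, 21.9% lower in adult than in embryonic heart, stands beside 7.71% and 7.23%. These 7 include 2 on the embryonic heart list alone, through which the listing enters this bar. The other 5 are on both lists. Among them are the 2 lincRNAs beside tbx2b, which overlap and are not independent.

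Transcription factors and developmental regulators were the neighbors of 5 lincRNAs. Of these 2, the pair beside tbx2b, were called lower in adult than in embryonic heart (background: 7.23%). The same 2 were called higher in embryonic heart than in muscle (background: 10.9%). They overlap, so they are not 2 independent results. The gene tbx2b encodes a T-box repressor known for keeping the atrioventricular canal of the developing heart free of chamber identity. TCONS_00026988 (ENSDART00000155403, chromosome 15 of Zv9, 26705712 to 26712956) and TCONS_00026989 (ENSDART00000155933, chromosome 15, 26706246 to 26713025) have 2 exons each, and their spans overlap by 6711 bp. TCONS_00026988 had 1.44, 1.13 and 1.94 FPKM in adult heart, 18.6, 7.96 and 13.3 FPKM in embryonic heart, and 1.96, 2.04 and 1.97 FPKM in adult muscle. Every embryonic heart sample was thus above every adult sample of either tissue. The log2 fold change was -3.01 ± 0.326 (SE) for adult over embryonic heart (limma adjusted p = 0.000453) and 2.60 ± 0.326 for embryonic heart over muscle (limma adjusted p = 0.000413).

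TCONS_00026989 showed lower values with the same order. It had 0.438, 0.684 and 0.578 FPKM in adult heart, 4.02, 1.86 and 4.83 FPKM in embryonic heart, and 0.879, 1.40 and 0.985 FPKM in adult muscle. No tissue type overlapped another. Its log2 fold change was -2.37 ± 0.391 for adult over embryonic heart (limma adjusted p = 0.00354) and 1.55 ± 0.391 for embryonic heart over muscle (limma adjusted p = 0.0161). The second call was lost without embryonic heart replicate 0 or 2 or adult muscle replicate 0 or 2, at limma adjusted p of 0.05 to 0.0535. Between adult heart and muscle the pair was not called, with log2 fold changes of -0.42 ± 0.326 (limma adjusted p = 0.423) for TCONS_00026988 and -0.83 ± 0.391 (limma adjusted p = 0.178) for TCONS_00026989.

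Fragments in the shared span were divided between the 2 transcripts by the authors' software, and the level of each rests on that division. The transcripts differ in length (772 and 627 nt), so their summed FPKM depends on it too. The summed FPKM was 1.88, 1.81 and 2.51 in adult heart, 22.6, 9.82 and 18.1 in embryonic heart, and 2.84, 3.45 and 2.95 in adult muscle. The ratio of TCONS_00026988 to TCONS_00026989 was 1.65 to 3.35 in adult heart, 2.75 to 4.62 in embryonic heart and 1.46 to 2.23 in muscle. Embryonic heart replicate 1 had the lowest embryonic level of both.

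The other 3 lincRNAs of this group were at low levels in all tissue types, and no comparison was called for any of them. Their neighbors are meis1, a homeodomain factor that in the mouse heart is linked to the exit of muscle cells from the cell cycle, id2a, a helix-loop-helix protein that blocks the DNA binding of its partners, and zfat, a zinc finger protein. Mean FPKM of the lincRNA beside meis1 was 0.302 ± 0.186 in adult heart, 0.235 ± 0.179 in embryonic heart and 0.211 ± 0.143 in muscle (SD, n = 3 each). Beside zfat it was 0.368 ± 0.124, 0.356 ± 0.105 and 0.216 ± 0.0682 FPKM in the same order (SD, n = 3 each). The lincRNA beside id2a had 0.0612, 0.220 and 0.361 FPKM in adult heart, a value of 0.244 in embryonic heart replicate 1 with 0 listed in the other samples of that tissue, and 0.120, 0.0641 and 0.0790 FPKM in muscle. It is on the adult heart list alone.

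Genes for chromatin proteins neighbored 3 lincRNAs. The clearest difference was that of TCONS_00098084 (ENSDART00000154459, chromosome 8, 30429536 to 30483965), beside smarcad1, whose product is an ATPase that moves nucleosomes. It had 0.164, 0.0324 and 0.241 FPKM in adult heart, 0.194, 0.0671 and 0.170 FPKM in embryonic heart, and 1.06, 1.51 and 0.677 FPKM in adult muscle. All muscle samples were above all heart samples, and the hearts overlapped. The log2 fold change was -2.31 ± 0.513 for adult heart over muscle (limma adjusted p = 0.0119) and -2.26 ± 0.513 for embryonic heart over muscle (limma adjusted p = 0.00975). Between the hearts it was -0.05 ± 0.513 (limma adjusted p = 0.981).

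Beside arid2, which encodes a subunit of the PBAF chromatin remodeling complex, the lincRNA had 0.843, 0.469 and 0.877 FPKM in adult heart, 0.398, 0.0544 and 0.204 FPKM in embryonic heart, and 0.257, 0.541 and 0.515 FPKM in muscle. The 3 adult heart samples exceeded the embryonic ones, but the difference was not called (log2 fold change 1.5 ± 0.525, limma adjusted p = 0.078). Without embryonic heart replicate 0 it was called, at a limma adjusted p of 0.0424. The lincRNA beside adnpb, a homeobox gene whose product binds chromatin remodelers, had 0, 0.196 and 0.215 FPKM in adult heart, was listed at 0 in all embryonic heart samples, and reached 0.159 FPKM in 1 muscle sample with 0 in the others. This lincRNA is on the adult heart list alone, and no comparison of it was called.

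Proteins that process or modify RNA were encoded by the neighbors of 3 lincRNAs. TCONS_00097990 (ENSDART00000133466, chromosome 8, 27073117 to 27082739) lies beside wdr6, whose human counterpart takes part in the methylation of tRNA. It is on the embryonic heart list alone. Its values were 0.0281, 0.0450 and 0.111 FPKM in adult heart, 0.903, 0.337 and 0.356 FPKM in embryonic heart, and 0.0952, 0.385 and 0.292 FPKM in muscle. The embryonic samples were above the adult heart samples and overlapped with muscle. The log2 fold change of adult over embryonic heart was -1.89 ± 0.534 (limma adjusted p = 0.0361), a call that the listing enters. The call was lost without any 1 of the adult heart samples, without embryonic heart replicate 0 or without adult muscle replicate 2, at limma adjusted p of 0.0544 to 0.102. It held in 8 of 17 alternatives and was also lost with a pseudocount of 1 (limma adjusted p = 0.0663).

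Beside c1d, a cofactor of the nuclear exosome, TCONS_00017776 was among the more abundant of the 32 in every tissue. It had 7.31, 2.27 and 2.30 FPKM in adult heart, 1.53, 0.605 and 1.56 FPKM in embryonic heart, and 4.91, 2.84 and 2.14 FPKM in muscle. Replicate 0 was the highest sample in both adult tissues. Adult heart was above embryonic heart in all samples, but this was not called (log2 fold change 1.49 ± 0.551, limma adjusted p = 0.092). The lincRNA beside ZCCHC4, whose human counterpart methylates ribosomal RNA, was listed at 0 in replicate 0 of all 3 tissue types. Its other values were 0.167 and 0.139 FPKM in adult heart, 0.816 and 1.22 FPKM in embryonic heart, and 0.220 and 0 FPKM in muscle. No comparison of it was called with all samples. Without embryonic heart replicate 0, adult over embryonic heart (limma adjusted p = 0.0443) and embryonic heart over muscle (limma adjusted p = 0.0194) were.

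The genes grouped as calcium and signaling neighbored 4 lincRNAs, with vsg1 placed among them although it encodes a protein of endothelial vesicles. TCONS_00016569 (chromosome 12, 29259419 to 29274918), which had no earlier annotation, lies beside cacna1g, which encodes the pore-forming subunit of a T-type calcium channel. It had 0.718, 1.49 and 1.10 FPKM in adult heart, 0, 1.0 and 0.819 FPKM in embryonic heart, and 0.0523, 0 and 0.137 FPKM in muscle. All adult heart samples were above all muscle samples, with a log2 fold change of 2.92 ± 0.882 (limma adjusted p = 0.0447). This call did not survive leaving out any 1 of the adult heart or muscle samples, at limma adjusted p of 0.0709 to 0.137. It held in 9 of 18 alternatives, and was also lost with a pseudocount of 0.01 (limma adjusted p = 0.117). Embryonic heart over muscle was not called (log2 fold change 1.60 ± 0.882, limma adjusted p = 0.214), and was without embryonic heart replicate 0, the sample listed at 0 (limma adjusted p = 0.00622).

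TCONS_00050140 (ENSDART00000155133, chromosome 20, 16782552 to 16783459) is named with calm2a, which encodes calmodulin, the main calcium sensor of cells. It is on the embryonic heart list alone, and was listed at 0 in all 3 adult heart samples. Embryonic heart had 0.697, 0.313 and 1.47 FPKM and adult muscle had 0.309, 0.335 and 0.406 FPKM. Adult heart was called lower than embryonic heart (limma adjusted p = 0.00433) and lower than muscle (limma adjusted p = 0.0167). Given the listing, its low adult heart level is not a result. The call against muscle was lost without adult heart replicate 1 or 2 or adult muscle replicate 2, at limma adjusted p of 0.0502 to 0.0550, and with a pseudocount of 1, at 0.199. No fold is given against samples at 0.

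TCONS_00002820 (chromosome 1, 213522 to 216649), unannotated before, lies beside gas6, which encodes a ligand of the Tyro3, Axl and Mer receptor kinases. It is on the adult heart list alone. It had 1.41, 0.495 and 0.473 FPKM in adult heart, 0, 0 and 0.162 FPKM in embryonic heart, and 2.71e-05, 0.146 and 0.230 FPKM in muscle. The adult heart samples were above all others, and replicate 0 stood above the other adult hearts. Adult over embryonic heart had a log2 fold change of 2.54 ± 0.665 (limma adjusted p = 0.0269), a call that the listing enters. The call was lost without adult heart replicate 0 or 1 or embryonic heart replicate 0 or 1, at limma adjusted p of 0.0544 to 0.0765. Of 17 alternatives, 10 kept it, and a pseudocount of 0.01 did not (limma adjusted p = 0.0634). Adult heart over muscle was not called (log2 fold change 1.99 ± 0.665, limma adjusted p = 0.0647). The lincRNA beside vsg1, listed in RefSeq as plvapb and encoding a protein of endothelial vesicles, had 0.322 ± 0.0281 FPKM in adult heart, 0.208 ± 0.0337 FPKM in embryonic heart and 0.502 ± 0.163 FPKM in muscle (SD, n = 3 each). No comparison of it was called, although its adult heart samples all exceeded the embryonic ones.

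Genes for membrane proteins, trafficking and protein turnover neighbored 5 lincRNAs. Of these, 3 were called higher than muscle in adult heart (background: 9.6%) and 3 in embryonic heart (background: 10.9%). The same calls were made for 14.9% and 13.0% of the other cardiac lincRNAs, also listed for expression in heart. The 3 of this group were the lincRNAs beside usp46, snx30 and tmbim4 in both comparisons. All 3 are on both heart lists. Of the 18 lincRNAs on both lists, these 3 included, 22.2% were called higher than muscle in adult heart and 33.3% in embryonic heart. The most abundant was TCONS_00050295 (ENSDART00000132008, chromosome 20, 23068855 to 23070801, 5 exons, 471 nt) beside usp46, which encodes an enzyme that removes ubiquitin from proteins. It had 10.9, 5.92 and 7.99 FPKM in adult heart, 26.1, 25.7 and 22.8 FPKM in embryonic heart, and 2.51, 1.72 and 2.07 FPKM in muscle. The 3 tissue types did not overlap, and embryonic heart was highest. Log2 fold changes were -1.62 ± 0.248 for adult over embryonic heart (limma adjusted p = 0.0025), 1.90 ± 0.248 for adult heart over muscle (limma adjusted p = 0.000715) and 3.52 ± 0.248 for embryonic heart over muscle (limma adjusted p = 1.46e-05).

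TCONS_00007803 (ENSDART00000134679, chromosome 10, 4966132 to 4966672, 268 nt) lies beside snx30, a sorting nexin gene of endosomal transport. It had 4.71, 1.62 and 1.18 FPKM in adult heart, 5.63, 3.72 and 4.74 FPKM in embryonic heart, and 0.607, 0.441 and 0.533 FPKM in muscle. Both hearts were above muscle in every sample. Adult heart replicate 0 lay within the embryonic range and the other adult hearts below it. Over muscle, the log2 fold change was 1.82 ± 0.463 in adult heart (limma adjusted p = 0.0222) and 2.93 ± 0.463 in embryonic heart (limma adjusted p = 0.0015). The adult call was lost without adult muscle replicate 1 or 2 (limma adjusted p of 0.0698 and 0.0598) and with a pseudocount of 1 (limma adjusted p = 0.0525). Between the hearts the log2 fold change of -1.11 ± 0.463 was not called (limma adjusted p = 0.127), and it was called without adult heart replicate 0 (log2 fold change -1.68, limma adjusted p = 0.0101).

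TCONS_00074650 (chromosome 4, 12044048 to 12044750), unannotated before, lies beside tmbim4, whose human counterpart encodes a Golgi membrane protein that protects cells from apoptosis. It had 0.431, 0.965 and 1.08 FPKM in adult heart, 0.493, 0.469 and 1.41 FPKM in embryonic heart, and 0, 0.194 and 0 FPKM in muscle. The hearts overlapped, and all heart samples exceeded the muscle samples. Over muscle, the log2 fold change was 2.61 ± 0.623 in adult heart (limma adjusted p = 0.0167) and 2.48 ± 0.623 in embryonic heart (limma adjusted p = 0.0156). Both calls were lost without adult muscle replicate 0 or 2, and the adult one also without adult heart replicate 1 or 2, at limma adjusted p of 0.0534 to 0.0647. A pseudocount of 1 ended both as well (limma adjusted p of 0.0560 in adult and 0.0575 in embryonic heart). Between the hearts it was 0.13 ± 0.623 (limma adjusted p = 0.929).

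The other 2 lincRNAs of this group were not called in any comparison with all samples. Both are on the adult heart list alone. Beside serinc2l, of a family of serine-incorporating membrane proteins, values were 0.192, 0.216 and 0.229 FPKM in adult heart, 0, 0 and 0.0972 FPKM in embryonic heart, and 0.105, 0.0769 and 1.41e-06 FPKM in muscle. The adult heart samples were the highest, with a log2 fold change of 1.32 ± 0.446 over embryonic heart (limma adjusted p = 0.0698), which was called without embryonic heart replicate 2 (limma adjusted p = 0.0372) and without the intensity trend (limma adjusted p = 0.0492). Beside ftr51, of the large fish family of tripartite motif genes, values were 0.215, 0.236 and 0.594 FPKM in adult heart, 0.313, 0 and 0 FPKM in embryonic heart, and 0.526, 0.419 and 0.321 FPKM in muscle. Embryonic heart was below muscle in every sample, with a log2 fold change of -1.68 ± 0.640 (limma adjusted p = 0.0816). Without embryonic heart replicate 0, both embryonic heart over muscle (limma adjusted p = 0.0109) and adult over embryonic heart (limma adjusted p = 0.0293) were called.

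Mitochondrial and metabolic genes neighbored 3 lincRNAs, and all 3 were called between the hearts, 2 higher (background: 12.2%) and 1 lower (background: 7.23%) in adult heart. The 2 higher ones are on the adult heart list alone, so their low embryonic heart levels are not a result. Of the 11 on that list alone, these 2 included, 36.4% were called higher. TCONS_00046542 (ENSDART00000153635, chromosome 2, 37534668 to 37536137) lies beside sdr39u1, of the short-chain dehydrogenase family. It had 1.14, 0.964 and 1.23 FPKM in adult heart, 4.71, 3.76 and 3.40 FPKM in embryonic heart, and 1.15, 1.0 and 1.23 FPKM in muscle. The adult tissues covered nearly the same range, and the embryonic samples stood above both. The log2 fold change was -1.74 ± 0.237 for adult over embryonic heart (limma adjusted p = 0.00143), 1.72 ± 0.237 for embryonic heart over muscle (limma adjusted p = 0.00071) and -0.02 ± 0.237 for adult heart over muscle (limma adjusted p = 0.994).

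TCONS_00028979 (ENSDART00000154112, chromosome 16, 27525314 to 27533822, 5 exons) lies beside slmo1, of a family that moves lipids between the mitochondrial membranes. It is on the adult heart list alone. It had 0.620, 0.402 and 0.887 FPKM in adult heart, 0.133, 0 and 0 FPKM in embryonic heart, and 1.96, 1.42 and 1.70 FPKM in muscle. The 3 tissue types did not overlap, and muscle was highest. Log2 fold changes were 2.42 ± 0.463 for adult over embryonic heart (limma adjusted p = 0.00716) and -3.75 ± 0.463 for embryonic heart over muscle (limma adjusted p = 0.000376). Adult heart over muscle was not called (log2 fold change -1.33 ± 0.463, limma adjusted p = 0.0755). It was called in 3 of 18 alternatives, among them without embryonic heart replicate 0 (limma adjusted p = 0.0371). The lincRNA beside zfat lies 45393 bp away on the same chromosome.

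TCONS_00086255 (ENSDART00000151182, chromosome 6, 10899710 to 10917316), beside coq7, a hydroxylase gene of ubiquinone synthesis, is also on the adult heart list alone. It had 0.522, 0.252 and 0.411 FPKM in adult heart and 0.102, 0.223 and 0.137 FPKM in muscle, and was listed at 0 in all embryonic heart samples. Adult heart was called higher than embryonic heart (limma adjusted p = 0.005), and embryonic heart was called lower than muscle (limma adjusted p = 0.0364). The second call was lost without adult heart replicate 2, without any 1 of the embryonic heart samples, or without adult muscle replicate 1 or 2, at limma adjusted p of 0.0532 to 0.0981. It held in 6 of 17 alternatives and was also lost with quantile normalization (limma adjusted p = 0.111) and a pseudocount of 1 (limma adjusted p = 0.177). Adult heart over muscle was not called (log2 fold change 0.95 ± 0.402, limma adjusted p = 0.135), although all its samples were higher.

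**Figure D3:**
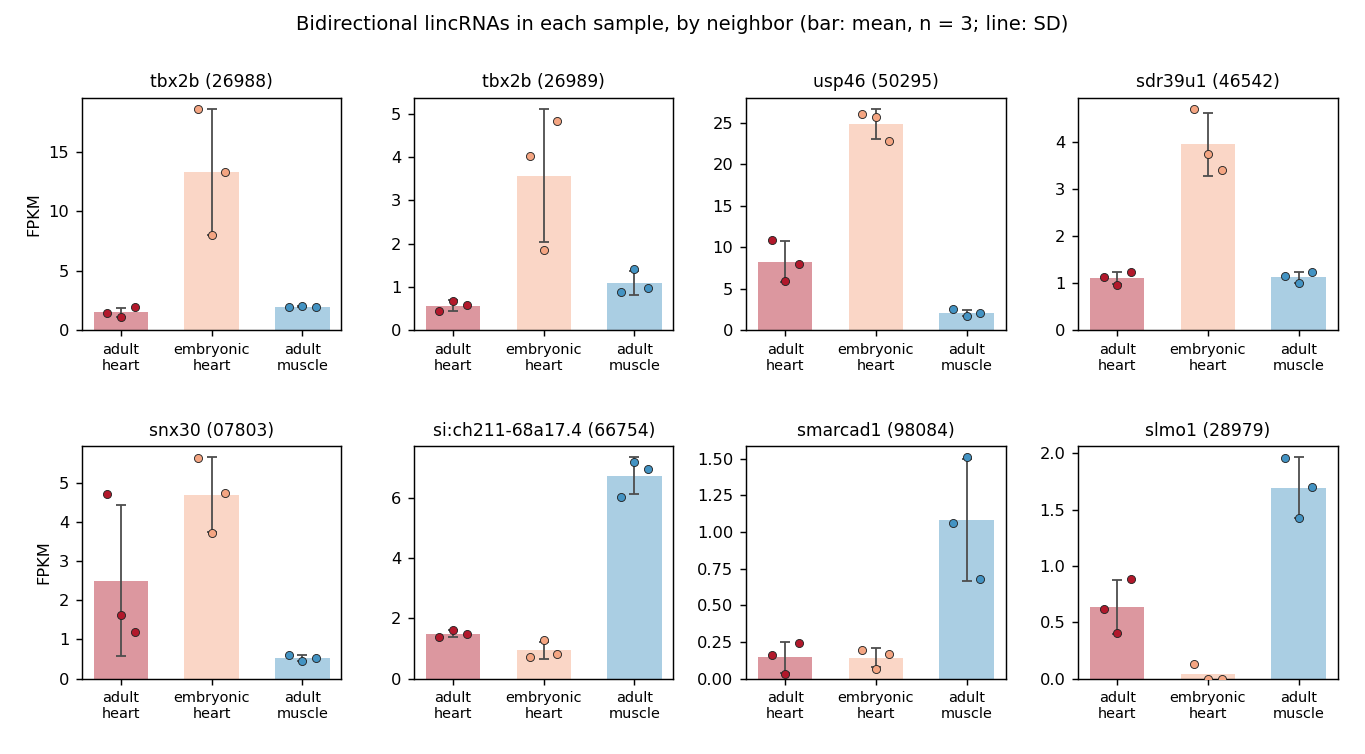
FPKM of 8 bidirectional lincRNAs in adult heart, embryonic heart and adult muscle, each panel named by the neighboring gene. Points are samples, bars the mean of 3 and lines the SD, left out where a sample is at 0. In the upper row the embryonic heart samples are highest, as in the lincRNA beside usp46 at 22.8 to 26.1 FPKM, and in the lower row muscle is lowest for snx30 and highest for the other 3 panels.

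The last 9 lincRNAs lie beside genes known mostly by clone or sequence names. TCONS_00066754 (ENSDART00000155972, chromosome 25, 19410736 to 19413918, 2850 nt) lies beside si:ch211-68a17.4, which RefSeq lists as parietopsin, an opsin known from the parietal eye of lizards. It had 1.38, 1.61 and 1.47 FPKM in adult heart, 0.719, 1.27 and 0.827 FPKM in embryonic heart, and 6.05, 7.22 and 6.96 FPKM in muscle. Muscle was thus far above both hearts, with log2 fold changes of -2.11 ± 0.252 for adult heart over muscle (limma adjusted p = 0.000438) and -2.75 ± 0.252 for embryonic heart over muscle (limma adjusted p = 6.67e-05). Adult heart exceeded embryonic heart in all samples but was not called (log2 fold change 0.65 ± 0.252, limma adjusted p = 0.105).

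TCONS_00065079 (chromosome 24, 24671088 to 24672058), beside zgc:112408, was unannotated before and is on the adult heart list alone. It had 1.06, 1.06 and 0.522 FPKM in adult heart, was listed at 0 in all embryonic heart samples, and had 0, 0 and 0.174 FPKM in muscle. Adult heart was called higher than embryonic heart (limma adjusted p = 0.00307) and higher than muscle (log2 fold change 2.75 ± 0.518, limma adjusted p = 0.00525). Both calls held without each single sample, but the listing enters the call between the hearts.

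TCONS_00031491 (chromosome 16, 41904321 to 41908284), beside zgc:77056, had 1.15, 0.712 and 1.04 FPKM in adult heart, 2.05, 3.08 and 3.82 FPKM in embryonic heart, and 1.58, 1.89 and 1.23 FPKM in muscle. The 3 tissue types did not overlap. Adult heart was called lower than embryonic heart (log2 fold change -1.51 ± 0.318, limma adjusted p = 0.0109), and embryonic heart over muscle was not called (log2 fold change 0.86 ± 0.318, limma adjusted p = 0.0739). The difference from muscle was called without embryonic heart replicate 0 (limma adjusted p = 0.0347).

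TCONS_00075626 (ENSDART00000150258, chromosome 4, 40743196 to 40743887), beside BX950868.1, had 0.823, 1.56 and 1.63 FPKM in adult heart, 0.408, 0.713 and 0.245 FPKM in embryonic heart, and 0.712, 0.696 and 1.10 FPKM in muscle. It was the only 1 of the 18 lincRNAs on both lists that was called higher in adult than in embryonic heart (log2 fold change 1.41 ± 0.428, limma adjusted p = 0.0477). This call was lost without 7 of the 9 samples in turn, at limma adjusted p of 0.0632 to 0.149. It remained without adult heart replicate 0 and without embryonic heart replicate 1. It was also lost with both other pseudocounts, without the filter, with both other scalings, with the 2 heart tissues alone and with the replicate block, at limma adjusted p of 0.0529 to 0.0901, and so held in 4 of 18 alternatives.

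TCONS_00029592 (chromosome 16, 45879597 to 45883977), beside si:dkey-7j14.6, was unannotated before and is on the adult heart list alone. It had 0.597, 0.104 and 0.404 FPKM in adult heart, 0, 0.0215 and 0 FPKM in embryonic heart, and 0.883, 0.0948 and 0.408 FPKM in muscle. Replicate 1 was the lowest in both adult tissues and replicate 0 the highest. Given the listing, its low embryonic heart level is not a result. Embryonic heart was called lower than muscle (log2 fold change -2.11 ± 0.684, limma adjusted p = 0.0464), and this was lost without 7 of the 9 samples in turn, at limma adjusted p of 0.0515 to 0.139, the exceptions being adult heart replicate 1 and adult muscle replicate 1. It held in 5 of 17 alternatives and was also lost with quantile normalization (limma adjusted p = 0.135) and a pseudocount of 1 (limma adjusted p = 0.114). Adult over embryonic heart was not called (log2 fold change 1.96 ± 0.684, limma adjusted p = 0.0763), but was without adult muscle replicate 1 (limma adjusted p = 0.0498) and with a pseudocount of 0.01 (limma adjusted p = 0.0233).

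In 2 lincRNAs of this group 1 adult heart sample differed widely from the others. Both are on the adult heart list alone. TCONS_00046873 (ENSDART00000137523, chromosome 2, 45487178 to 45496251), beside si:ch211-66k16.27, had 0.00202 FPKM in adult heart replicate 0 but 2.11 and 2.0 FPKM in replicates 1 and 2. Its highest value was 0.104 FPKM in embryonic heart and 0.124 FPKM in muscle. With all samples no comparison was called. Without adult heart replicate 0, adult heart was called higher than embryonic heart (log2 fold change 4.09, limma adjusted p = 0.00342) and higher than muscle (log2 fold change 3.83, limma adjusted p = 0.00303).

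TCONS_00069379 (ENSDART00000155206, chromosome 3, 8042453 to 8044458), beside BX927317.3, is with 122 nt the shortest of the 32. It was listed at 0 in adult heart replicate 0, had 50.0 and 8.06 FPKM in replicates 1 and 2, and was listed at 0 in all embryonic heart and muscle samples. Its mean of 19.3 FPKM, the highest of the 32 in adult heart, therefore came from 2 samples. It was not called against embryonic heart (limma adjusted p = 0.0851) or muscle (limma adjusted p = 0.0846). Without adult heart replicate 0 both were called, at limma adjusted p of 0.000909 and 0.000437. Adult heart replicate 0 had 5 of the 32 lincRNAs listed at 0, against 1 and 2 in the other adult hearts, and 5.89% of the other cardiac lincRNAs, against 4.61% and 3.46%. The part of this in the 2 results was not tested.

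The remaining pair in this group was not called in any comparison. The lincRNA beside si:ch1073-286c18.5 had 2.66 ± 0.276 FPKM in adult heart, 4.19 ± 1.65 FPKM in embryonic heart and 2.56 ± 0.421 FPKM in muscle (SD, n = 3 each). That beside si:dkey-238o14.8, on the embryonic heart list alone, had 0, 0.171 and 0 FPKM in adult heart, 0.325, 0.461 and 0 FPKM in embryonic heart, and 0.538, 0.162 and 0.20 FPKM in muscle.

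**Figure D4:**
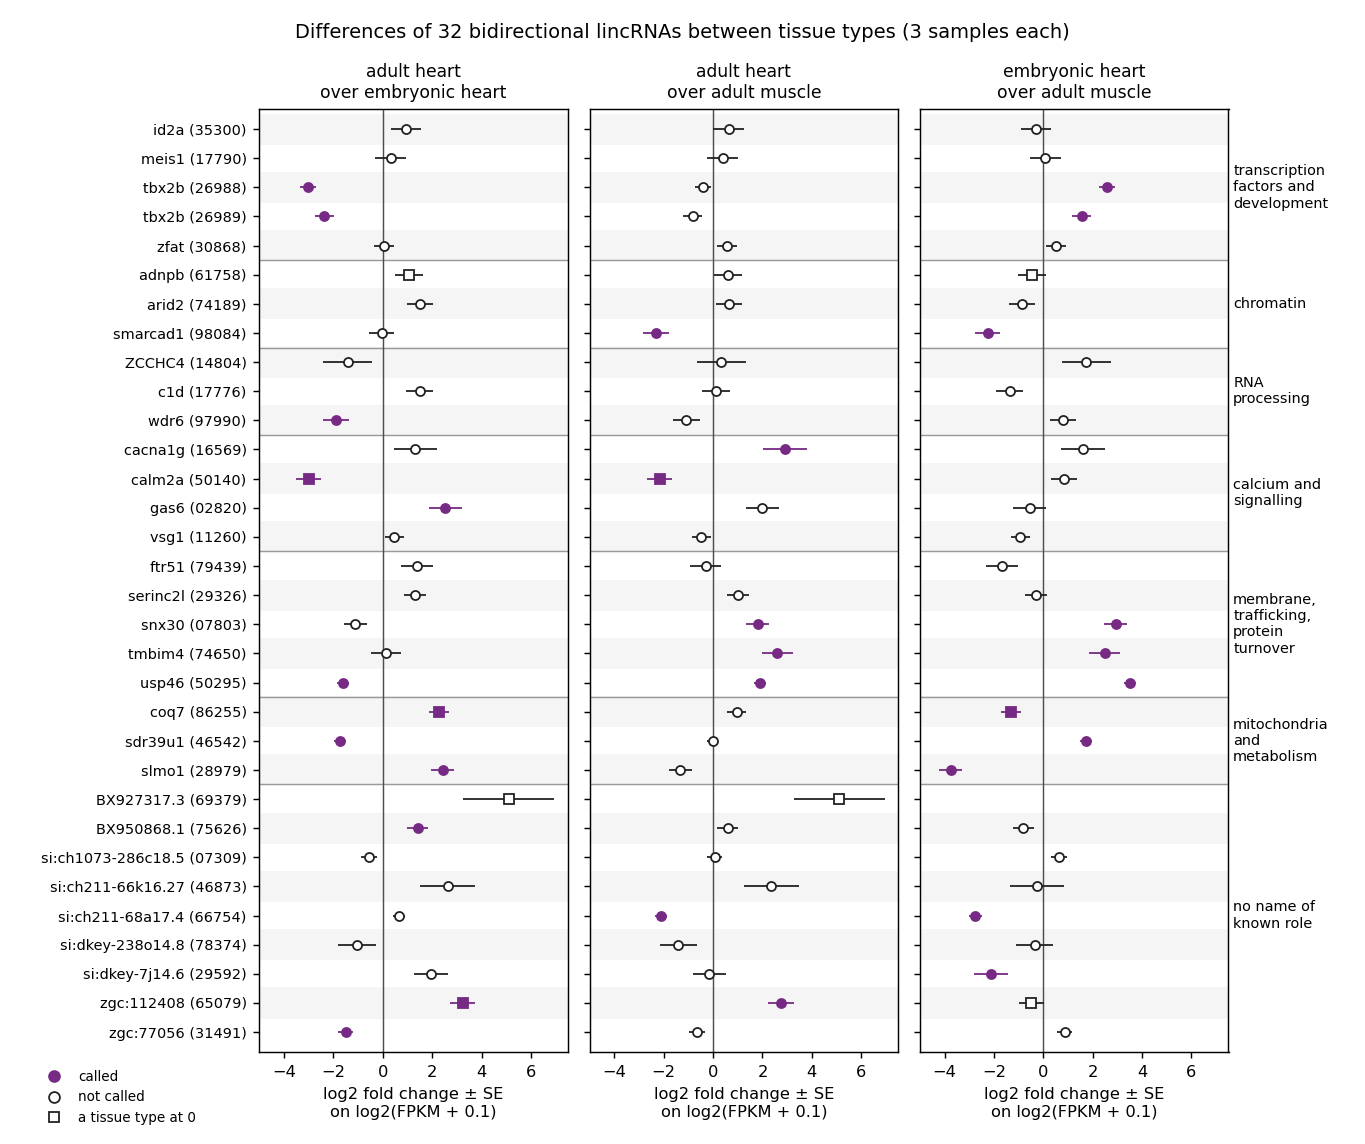
Log2 fold change with its SE, on log2(FPKM + 0.1), of each bidirectional lincRNA in the 3 comparisons, with rows ordered by the role of the neighboring gene. Filled symbols are called, and squares mark fold changes against a tissue type listed at 0, whose size depends on the added 0.1, while BX927317.3 has no point where both tissue types are at 0. In the membrane and trafficking group 3 of 5 lincRNAs are called higher than muscle in both hearts (background: 9.6% for adult and 10.9% for embryonic heart). Among the other cardiac lincRNAs these shares are 14.9% and 13.0%. Among the 18 on both heart lists, these 3 included, they are 22.2% and 33.3%. Of the 3 adult calls only that beside usp46 held without each single sample. Beside tbx2b both lincRNAs, which overlap, are called lower in adult than in embryonic heart (background: 7.23%).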

How the data were processed

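RNA-seq libraries of 9 samples were sequenced by the authors as paired ends, aligned with TopHat 2.0.12 to Zv9, assembled with Cufflinks 2.2.1 and quantified with Cuffnorm. The deposited table holds the authors' FPKM per transcript and sample, and the scaling option of Cuffnorm is not given in the sources used here. Members, neighbors, coordinates, exons and lengths were taken from the study's lists. Fold changes given there for the neighbors were not used. The members and gene groups were chosen with earlier results of these data known.

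The test was limma 3.58.1 (R 4.3.3), two-sided, with an intensity trend, on log2(FPKM + 0.1) of every transcript whose mean exceeded 0.1 FPKM in 1 or more tissue types. Fold changes on this scale understate changes of low transcripts. The fit was tested on simulated data. Changes were simulated only in the more abundant transcripts, so that test does not cover lincRNAs at lower levels. Fold changes are given for lincRNAs that were called, for those without overlap at a ratio above 4, and for the tbx2b pair. In the text they are left out against a tissue type listed at 0 in all samples. Others with fold changes were chosen after their values were seen. The replicates are 3 biological samples per tissue type, with no further origin given. Deviations from the tissue means correlated at -0.02 to 0.07 between same-numbered samples, highest between adult heart and muscle in replicate 0. Whether same-numbered adult heart and muscle came from the same fish is not given in the sources used here. Alternatives were other pseudocounts, filters, scalings and thresholds, a fit without trend or with 2 tissue types, a replicate block and leaving out each sample. Without the thresholds these were 18 for a single lincRNA, and 17 where a filter removed it. Python 3.11.15, numpy 2.4.6, pandas 2.3.3 and matplotlib 3.10.9 were used.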

Additional observations from a re-analysis of the deposited data

How the results depend on the processing

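In none of the comparisons chosen by the rule for fold changes did the direction reverse under any alternative. Comparisons against a tissue type at 0, whose fold is left out of the text, are included. Of 651 values of these comparisons, 565 kept their side of the threshold, 81 lost a call and 5 gained one. Requiring a mean above 1 FPKM left 15 lincRNAs to test and 7 calls between the hearts and 5 between adult heart and muscle. An adjusted p below 0.01 left 3 calls between adult heart and muscle and 7 between embryonic heart and muscle. Leaving out each sample gave 9 to 13 calls between the hearts, 4 to 9 between adult heart and muscle and 7 to 12 between embryonic heart and muscle. Shares called over all transcripts at these settings are not given here. The counts therefore show only how far the calls moved, and are no result about the 32 lincRNAs. With the replicate block, the counts were 10, 8 and 11, and 11659, 12886 and 18351 over all transcripts, against 13419, 14301 and 19516 without it. Whether same-numbered replicates share more than a number is not given. Depth is unknown, so the counting error of these low values could not be given.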
